A study of Mus musculus with 28 samples.

Results

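The enzymes described here carry the methionine cycle and the transsulfuration branch that leads from homocysteine to cysteine. They also carry folate reactions, which supply the methionine cycle with one-carbon units. They are 9 of the 54354 genes in the deposited table: Mat2a, Ahcy, Mtr, Mtrr, Cbs, Cth, Shmt1, Shmt2 and Mthfd2. They are taken by symbol from a list of enzymes of these pathways. This rule uses no measured value, but the list was chosen with earlier results of these data known. All 9 passed the filter on low counts and were among the 12495 genes tested. The libraries come from mice of the genotype Lgr5-GFP, in which green fluorescent protein reports the stem cell receptor gene Lgr5. Every group carries this reporter. The groups are Lgr5-high cells on control diet, Lgr5-high cells on cystine diet, Lgr5-low cells on control diet and Lgr5-low cells on cystine diet, with 7 libraries each and 28 in all. Cystine is the oxidised dimer of cysteine. Age, sex, cystine dose and feeding time are not given in the labels. Small intestine is the labelled tissue, but the extraction protocol in the labels speaks of organoids, and this is not settled here. Nor do the labels tie libraries to separate animals, so each p-value measures only how far these libraries spread, which may be technical in part.

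In the methionine cycle, methionine is activated to S-adenosylmethionine, the methyl donor of most methylation reactions, and the S-adenosylhomocysteine left over is split to homocysteine. Homocysteine is either remethylated to methionine with a methyl group from folate, or condensed with serine to cystathionine and cleaved to cysteine, the scarce building block of glutathione. Serine hydroxymethyltransferases move a carbon from serine onto folate in the cytosol and in mitochondria, and proliferating crypt cells draw on these carbons for thymidylate and purine synthesis.

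Levels are given as CPM, counts per 1 M (1e+06) counts of the library after scaling by TMM normalization factors. Total counts per library averaged 14.8 M in Lgr5-high control (4.05 to 21.4 M), 6.84 M in Lgr5-high cystine (2.75 to 14.9 M), 8.53 M in Lgr5-low control (3.09 to 18.9 M) and 13.6 M in Lgr5-low cystine libraries (4.11 to 21.5 M). The sorted populations carried their labels: 6 of 6 intestinal stem cell markers were higher in Lgr5-high cells over both diets, with sums of 3265 to 7330 CPM against 664 to 2502 CPM in Lgr5-low libraries. All 5 goblet cell markers and all 5 enteroendocrine markers were lower in Lgr5-high cells, as was 1 of 7 enterocyte markers (median log2 fold change of the 7, -0.95). Of 4 Paneth cell markers 0 had an adjusted p under 0.05, and all 4 had positive log2 fold changes (median 0.41). Their sums lay above those of the stem cell markers in every library. The medians were 62832 and 58782 CPM in Lgr5-high cells (control, cystine) and 31927 and 55645 CPM in Lgr5-low cells. Of 8 macrophage markers, 7 were higher in Lgr5-high cells over both diets, with sums of 6.18 to 401 CPM in Lgr5-high cystine libraries against 4.37 to 76.6 CPM in the other groups. Transcripts of hepatocyte markers were counted in every library, among them Alb, at 38.1 to 354 CPM. Xist and Y-linked genes split the libraries into a female class of 18 and a male class of 10.

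Among the methionine cycle genes, Mat2a encodes the catalytic subunit of the S-adenosylmethionine synthetase of tissues outside the liver. Its level ran from 62.3 to 83.5 CPM (median 73.1) in Lgr5-high control and from 57.7 to 92.2 CPM (median 75.1) in Lgr5-high cystine libraries. In Lgr5-low cells it ran from 56.9 to 88.0 CPM (median 74.2) on control diet and from 49.97 to 84.0 CPM (median 80.6) on cystine diet. The 4 groups covered nearly the same range, with means of 73.9 ± 8.04, 73.3 ± 12.0, 73.5 ± 12.1 and 73.5 ± 13.2 CPM in that order (SD, n = 7 each). Lgr5-high minus Lgr5-low over both diets was 0.00 on the log2 scale, with a 95% confidence interval from -0.22 to 0.22. This was one of the tightest intervals of the 9 genes, so a difference between populations of more than 0.22 lay outside it in either direction.

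Ahcy encodes S-adenosylhomocysteine hydrolase, which clears the product of methyl transfer. It measured 101 to 146 CPM (median 118) in Lgr5-high control, 82.8 to 134 CPM (median 114) in Lgr5-high cystine, 108 to 153 CPM (median 132) in Lgr5-low control and 94.6 to 199 CPM (median 109) in Lgr5-low cystine libraries. All 4 ranges overlapped, and the population difference over both diets was -0.15 ± 0.11 (log2, SE; interval -0.38 to 0.08; adjusted p = 0.472). Gm4737, Gm9826 and Gm5638 match 2083, 1299 and 1269 bases of the Ahcy transcript at 99.7%, 99.2% and 94.5% identity. All of these copies are listed with 0 counts beside 38909 for Ahcy, so the level of Ahcy rests on how the authors' quantification divided shared reads.

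Mtr encodes methionine synthase, the cobalamin enzyme that returns homocysteine to methionine, and Mtrr the reductase that reactivates it. Mtr was the scarcest of the 9 genes per kilobase of the longest coding transcript; per length of all exons Cbs was scarcer in Lgr5-low cystine libraries. Its libraries held 1 to 132 counts, apart from 4 of the 7 Lgr5-low control libraries, replicates 1, 2, 3 and 7, which held none. With 3 counts as the limit that a count of 0 allows, those libraries may have held up to 0.506, 0.643, 0.454 and 0.889 CPM, whereas the other 3 libraries of the group measured 3.19, 3.57 and 5.50 CPM. The other groups had medians of 1.81, 2.58 and 2.30 CPM (Lgr5-high control, Lgr5-high cystine, Lgr5-low cystine) and overlapped throughout. At this depth no population difference in Mtr was detectable (0.16 ± 0.63, interval -1.11 to 1.44, adjusted p = 0.926). Mtrr ran from 3.73 to 13.4 CPM in Lgr5-high control, 1.75 to 12.2 in Lgr5-high cystine, 2.13 to 13.6 in Lgr5-low control and 0.831 to 14.4 in Lgr5-low cystine libraries, a spread within each group that exceeded any difference between them (population difference -0.22 ± 0.33, adjusted p = 0.766).

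**Figure D1:**
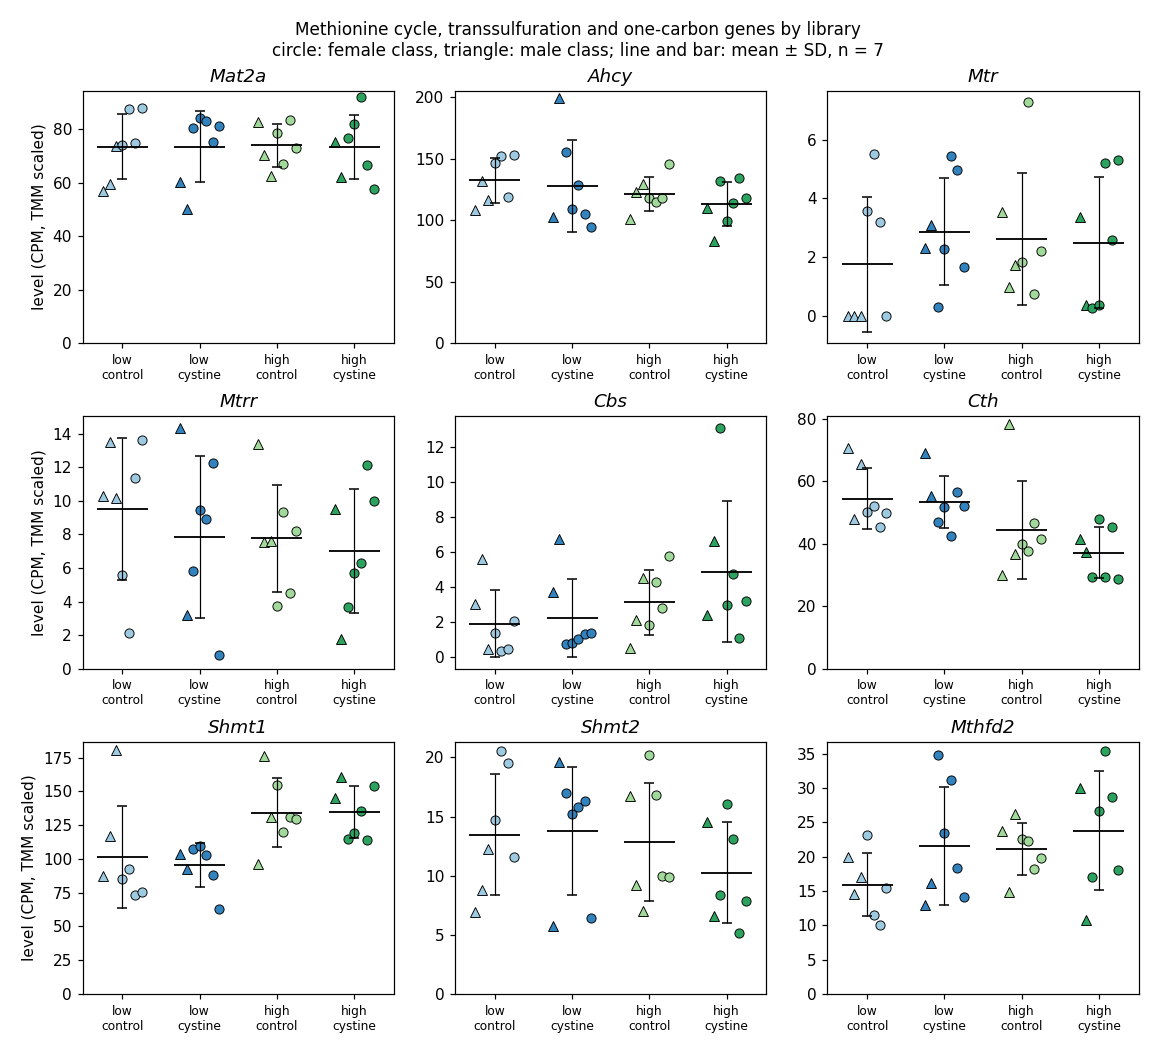
CPM of each of the 9 genes in the 28 libraries, by population and diet (n = 7 per group); circles are female-class and triangles male-class libraries, and lines with bars are means ± SD. Shmt1 stands higher and Cth lower in Lgr5-high libraries, Mat2a shows the same mean in all groups, and 4 Lgr5-low control libraries lie at 0 for Mtr.

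At the entry to transsulfuration stands Cbs, cystathionine beta-synthase, which commits homocysteine to cysteine synthesis. Its counts were low, from 2 to 95 per library. Levels ran from 0.506 to 5.79 CPM (median 2.83) in Lgr5-high control, 1.11 to 13.1 CPM (median 3.18) in Lgr5-high cystine, 0.337 to 5.57 CPM (median 1.38) in Lgr5-low control and 0.728 to 6.74 CPM (median 1.33) in Lgr5-low cystine libraries. Of the 14 Lgr5-high libraries, 12 lay above the median of their Lgr5-low group. The population difference of 0.95 ± 0.49 over both diets did not pass (interval -0.03 to 1.93, adjusted p = 0.241). It was 2.03 ± 0.53 within the female class (adjusted p = 0.0110) and -0.30 ± 0.97 within the male class (adjusted p = 0.938). Over all libraries it also passed with limma-voom and sample quality weights (1.59 ± 0.42, adjusted p = 0.00669). With each library left out in turn, the edgeR value ran from 0.67 (without Lgr5-high cystine replicate 3, adjusted p = 0.462) to 1.25. Across the 28 libraries Cbs had Pearson's r of 0.53 with the macrophage sum, or 0.37 with the group means removed. With stem cell, goblet and enterocyte sums r was 0.41, -0.41 and 0.03 (0.06, -0.10 and 0.25 with the group means removed). The part of these markers in the Cbs difference was not tested. In all, 300 to 570 bases of the Cbs transcript match each of 138 other genes at 90% identity or more. Genes that matched fewer than 300 bases in all were not counted, and the search kept at most 500 targets.

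Cth encodes cystathionine gamma-lyase, which releases cysteine from cystathionine. Lgr5-high control libraries measured 29.9 to 78.3 CPM (median 39.9) and Lgr5-high cystine libraries 28.9 to 48.0 CPM (median 37.4). Lgr5-low libraries measured 45.4 to 70.7 CPM (median 50.2) on control diet and 42.4 to 68.9 CPM (median 52.1) on cystine diet. Of the 14 Lgr5-high libraries, 10 lay below every Lgr5-low library, and 13 lay below the Lgr5-low median of their diet. The exception was replicate 2 of the Lgr5-high control group at 78.3 CPM, above all Lgr5-low control libraries.

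Over both diets Cth was lower in Lgr5-high cells by 0.41 ± 0.13 log2 units, from means of 54.5 ± 9.63 and 53.4 ± 8.37 CPM in Lgr5-low cells (control, cystine) to 44.4 ± 15.8 and 37.1 ± 8.11 CPM (log2 fold change -0.41, interval -0.68 to -0.14, adjusted p = 0.0475). The call lay close to the threshold. It was lost when the RLE size factors replaced TMM (adjusted p = 0.0636), without the filter on low counts (0.0739), without the 7 libraries under 5 M counts (0.136), and within the female class (-0.36, 0.0714) or the male class (-0.51, 0.403). Leaving out each library in turn kept it in 8 of 28 fits, with adjusted p from 0.00643 (without Lgr5-high control replicate 2) to 0.0818 (without Lgr5-high cystine replicate 5). The log2 fold change stayed between -0.52 and -0.36 throughout. On each diet alone it did not pass (-0.29 ± 0.19, adjusted p = 0.566 on control diet, and -0.52 ± 0.19, adjusted p = 0.138 on cystine diet). Without Lgr5-high control replicate 2 the control diet value was -0.52 (adjusted p = 0.172).

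Among the folate enzymes, Shmt1 encodes the cytosolic serine hydroxymethyltransferase. It measured 96.4 to 176 CPM (median 131) in Lgr5-high control and 114 to 161 CPM (median 135) in Lgr5-high cystine libraries. The Lgr5-low libraries measured 73.6 to 181 CPM (median 87.4) on control diet and 63.0 to 110 CPM (median 103) on cystine diet. On cystine diet the groups were apart, each of the 7 Lgr5-high libraries exceeding the highest Lgr5-low library. The share of all genes tested that were apart in this way was not computed. On control diet the groups overlapped: replicate 3 of the Lgr5-low group reached 181 CPM, above every Lgr5-high library, and its next library 117 CPM, above the lowest Lgr5-high library.

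Shmt1 was higher in Lgr5-high cells over both diets, at means of 134 ± 25.4 and 135 ± 19.1 CPM (control, cystine; SD, n = 7) against 102 ± 37.7 and 95.3 ± 16.2 CPM in Lgr5-low cells. The log2 fold change was 0.45 ± 0.13 (interval 0.20 to 0.70, adjusted p = 0.0173), a 1.37-fold level, and all 14 Lgr5-high libraries lay above the median of their Lgr5-low group. Without Lgr5-high control replicate 2 the adjusted p was 0.0501 (0.40), and without any other single library it ran from 0.000931 to 0.0471. Within the female class the difference was 0.57 ± 0.11 (adjusted p = 0.000729) and within the male class 0.34 ± 0.22 (adjusted p = 0.503). On each diet alone it did not pass, at 0.40 ± 0.18 on control diet (adjusted p = 0.305) and 0.50 ± 0.18 on cystine diet (adjusted p = 0.130). Without Lgr5-low control replicate 3 the control diet difference was 0.60 (adjusted p = 0.0260). The exons of Smcr8 overlap Shmt1 on the other strand, and its counts summed to 1731 over all libraries.

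Shmt2 encodes the mitochondrial serine hydroxymethyltransferase, and Mthfd2 a mitochondrial dehydrogenase and cyclohydrolase of the same route, known from proliferating and embryonic cells. Shmt2 ran from 6.98 to 20.2 CPM (median 9.99) in Lgr5-high control, 5.16 to 16.1 CPM (median 8.37) in Lgr5-high cystine, 6.92 to 20.5 CPM (median 12.3) in Lgr5-low control and 5.74 to 19.6 CPM (median 15.8) in Lgr5-low cystine libraries. Mthfd2 ran from 14.9 to 26.2 CPM (median 22.3), 10.8 to 35.5 CPM (median 26.7), 10.1 to 23.1 CPM (median 15.4) and 12.9 to 34.8 CPM (median 18.4) in the same order. The ranges overlapped in every comparison. Neither population difference over both diets passed, at -0.24 ± 0.23 for Shmt2 (adjusted p = 0.606) and 0.27 ± 0.19 for Mthfd2 (adjusted p = 0.419). Whether the cytosolic and the mitochondrial enzyme differ from each other in their population difference was not tested.

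The sequence before the start site is shown for these paired hydroxymethyltransferases, of which Shmt1 passed the test and Shmt2 did not. It is also shown for Cbs, whose promoter held the one match among the 8 genes with a promoter at hand. The sequences come from the RefSeq promoter table of GRCm38.p6, trimmed to bases outside annotated exons. They are given on the minus strand that the genes use. The windows are chr11:60811266-60811466 for Shmt1, chr10:127522445-127522694 for Shmt2 and chr17:31637239-31637455 for Cbs. The Shmt1 window lies before the RefSeq start site but within the gene as GENCODE M21 places it (60788104 to 60811718). Those of Shmt2 and Cbs lie just outside their genes, so the windows are not alike in position. Capitals mark an E-box, CACGTG, the site read by MYC and related factors.
Shmt1: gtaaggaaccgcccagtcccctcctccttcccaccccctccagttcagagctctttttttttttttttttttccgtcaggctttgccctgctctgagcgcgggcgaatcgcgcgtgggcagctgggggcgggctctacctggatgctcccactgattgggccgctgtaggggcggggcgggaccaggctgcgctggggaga
Shmt2: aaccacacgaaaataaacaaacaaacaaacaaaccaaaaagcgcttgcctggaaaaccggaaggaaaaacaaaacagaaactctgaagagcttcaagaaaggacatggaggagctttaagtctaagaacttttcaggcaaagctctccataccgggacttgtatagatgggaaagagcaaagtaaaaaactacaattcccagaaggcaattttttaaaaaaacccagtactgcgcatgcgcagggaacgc
Cbs: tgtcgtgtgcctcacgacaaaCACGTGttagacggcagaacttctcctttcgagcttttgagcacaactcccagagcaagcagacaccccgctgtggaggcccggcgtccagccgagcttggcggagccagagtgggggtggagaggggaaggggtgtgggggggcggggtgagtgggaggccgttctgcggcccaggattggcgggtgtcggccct
The table matched 8 of the 9 genes; Cth was not matched. The E-box occurred in 1 of the 8 genes, in Cbs, starting 229 bases before the start site. Counted by promoter, this was 1 of the 9 promoters of these genes, beside 7.15% of the 32851 promoters of 300 bases searched. The promoters of 1 chromosome, which holds none of the 9 genes, were left out. TGATGNAA, the core of the response element of amino acid starvation, occurred in 0 of the 8 genes and in 3.97% of the promoters searched. TGACNNNGC, the core of the antioxidant response element, occurred in 0 of the 8 and in 12.4% of the promoters searched. Both strands were searched, and the matches are a description of these letters in these windows only.

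Per kilobase of the longest coding transcript, which allows genes to be compared with each other, Ahcy and Shmt1 had the highest levels. Ahcy averaged 47.8 ± 5.42 CPM per kilobase and Shmt1 46.9 ± 8.89 in Lgr5-high control libraries (SD, n = 7). They were followed by Cth at 24.5 ± 8.70, Mat2a at 21.8 ± 2.37, Mthfd2 at 10.1 ± 1.80 and Shmt2 at 5.61 ± 2.18. Mtrr stood at 2.01 ± 0.83, Cbs at 0.501 ± 0.294 and Mtr at 0.315 ± 0.271. The 2 Lgr5-low groups gave the same order, and in Lgr5-high cystine libraries Shmt1 and Ahcy, and Mat2a and Cth, changed places. Most neighbours in the order overlapped between libraries: only Mat2a and Mthfd2 were apart in both control diet groups, Mtrr and Cbs in Lgr5-high control, and Ahcy and Mat2a in Lgr5-high cystine libraries. With all annotated exons as the length, Mat2a came before Cth in Lgr5-high control, Ahcy before Shmt1 in Lgr5-high cystine and Mtr before Cbs in Lgr5-low cystine libraries.

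**Figure D2:**
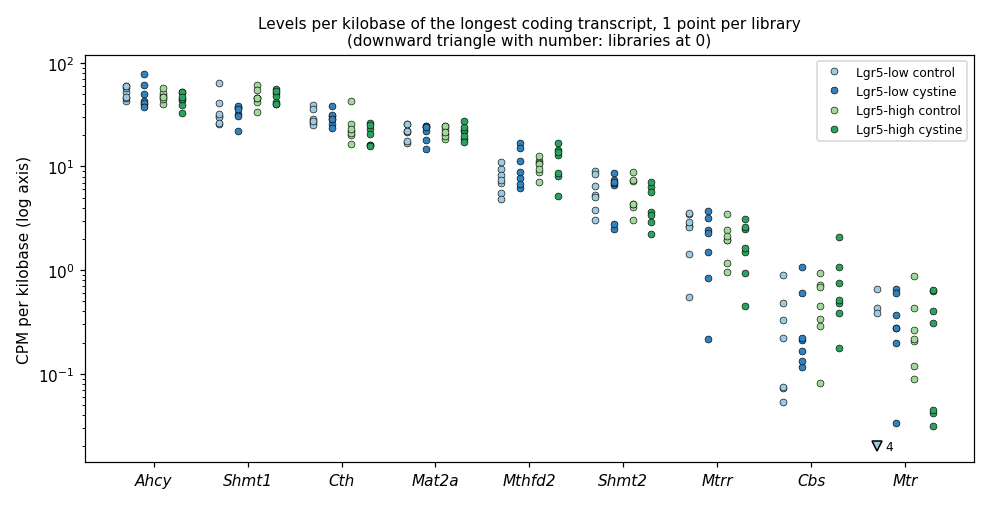
CPM per kilobase of the longest coding transcript on a log axis for the 9 genes, ordered by mean level, with 1 point per library coloured by group; a downward triangle gives the number of libraries at 0. Ahcy and Shmt1 lead at about 47 CPM per kilobase in Lgr5-high control libraries, and Cbs and Mtr lie below 1 on average.

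The comparison of the populations asked where these enzymes differ between stem cell enriched and stem cell depleted sorts. Over both diets, Shmt1 was higher and Cth lower in Lgr5-high cells and the other 7 genes did not pass, which is 2 of 9 against 8.8% of all genes tested (3.75% higher and 5.05% lower). The median log2 fold change of the 9 genes was 0.00, beside -0.02 for all genes tested. On control diet 0 of the 9 genes passed (1.8% of all genes) and 1 had an unadjusted p under 0.05. On cystine diet 0 passed (2.64% of all genes) and 2 had an unadjusted p under 0.05. In bulk libraries, fewer cells of a type and less RNA per cell cannot be told apart. Macrophage, goblet and enteroendocrine markers differed between the same groups as described above. Across the 28 libraries, with the group means removed, the level of Shmt1 had r of 0.76 with the summed stem cell markers, -0.12 with goblet, -0.36 with enterocyte and -0.03 with macrophage markers. For Cth these were -0.03, 0.27, 0.26 and 0.05. The stem cell sum is mostly Olfm4, which in Lgr5-high control libraries averaged 4772 CPM of a sum of 5314 CPM. Lgr5 averaged 35.0 CPM there. With the group means left in, r with goblet and enterocyte markers was -0.59 and -0.54 for Shmt1 and 0.62 and 0.42 for Cth. The part of these markers in the differences of Shmt1 and Cth was not tested.

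**Figure D3:**
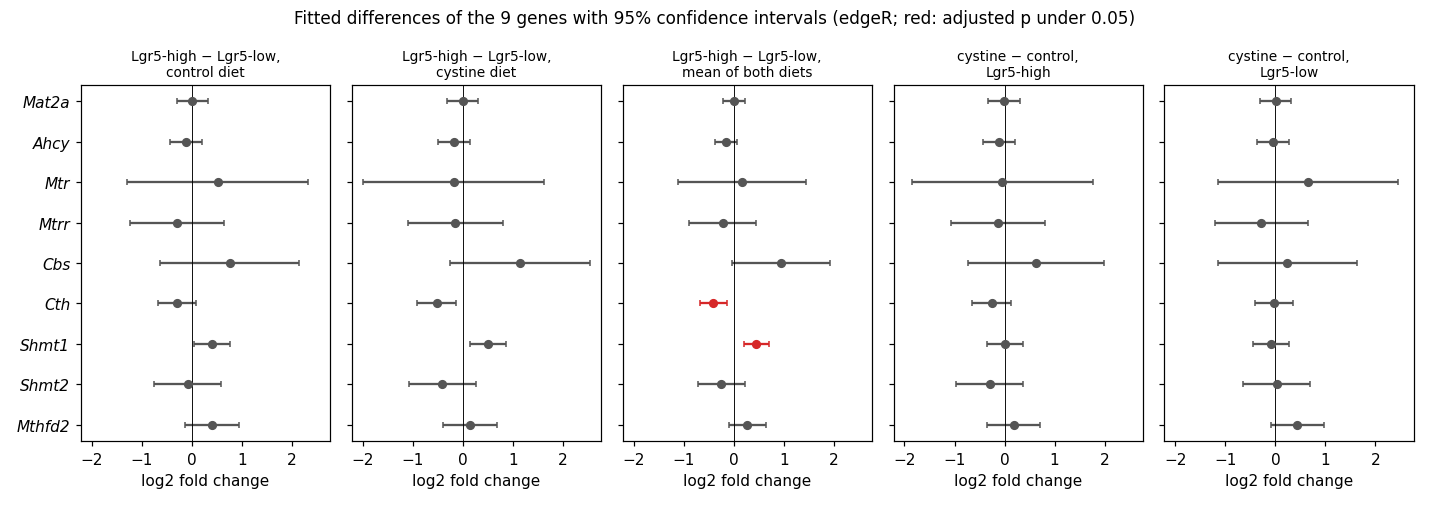
Log2 fold changes of the 9 genes with 95% confidence intervals from the edgeR fit, for 3 comparisons of the populations and 2 of the diets; red marks an adjusted p under 0.05. Shmt1 and Cth pass in the mean over both diets, none of the 9 passes in any other panel, and the intervals of Mtr, Cbs and Mtrr are several times wider than that of Mat2a.

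The diet comparison asked whether dietary cystine, the oxidised form of the cysteine that transsulfuration makes, went with other levels of these enzymes. In Lgr5-high cells 0 of the 9 genes passed (0.168% of all genes, 21 of 12495), and 0 had an unadjusted p under 0.05. In Lgr5-low cells 0 passed and 0 had an unadjusted p under 0.05; there 0% of all genes passed, and 371 had an unadjusted p under 0.05. The difference between these diet effects passed for 0 of the 9 and for 0% of all genes, 415 of which had an unadjusted p under 0.05. No alternative setting called a diet effect for any of the 9 genes, DESeq2 and limma-voom included. At the transsulfuration genes, cystine minus control in Lgr5-high cells was 0.62 ± 0.67 for Cbs (interval -0.74 to 1.99) and -0.26 ± 0.19 for Cth (interval -0.64 to 0.12). The value farthest from 0 in units of its SE was that of Mthfd2 in Lgr5-low cells (0.44 ± 0.26, interval -0.09 to 0.97).

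These intervals differ in what they exclude. For Mat2a and Ahcy in Lgr5-high cells they ran from -0.32 to 0.30 and from -0.43 to 0.22, and for Shmt1 from -0.35 to 0.36. For Shmt2 the interval ran from -0.97 to 0.37, for Mthfd2 from -0.35 to 0.71, for Mtrr from -1.07 to 0.81 and for Mtr from -1.86 to 1.77. Depth differed between the groups as given above, and macrophage marker sums in Lgr5-high cells had medians of 28.1 CPM on control and 221 CPM on cystine diet, with 5 of 8 markers higher on cystine diet. Their part in the diet values was not tested.

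The wider pathway was described with 59 further genes in 6 lists, of which 54 passed the filter. Over both diets 9 of the 54 differed between the populations, beside 8.8% of all genes. The 5 that were higher in Lgr5-high cells serve the folate pool, serine synthesis, cobalamin uptake and S-adenosylmethionine synthesis. Ggh, which trims folate polyglutamates, measured 42.8 ± 9.82 and 49.3 ± 15.4 CPM on control and cystine diet in Lgr5-high cells against 25.8 ± 12.0 and 22.3 ± 7.49 CPM (log2 fold change 0.94 ± 0.19, adjusted p = 0.00104), and 10 of 14 Lgr5-high libraries exceeded every Lgr5-low library. Phgdh, the first enzyme of serine synthesis, had medians of 12.0 and 12.1 CPM against 3.35 and 6.55 CPM (1.02 ± 0.30, adjusted p = 0.0235). Cd320, the cellular receptor for cobalamin bound to transcobalamin, was at 1.04 ± 0.32 (adjusted p = 0.0342). Mat2b, the regulatory partner of Mat2a, was at 0.44 ± 0.13 (adjusted p = 0.0300).

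Of the 4 that were lower in Lgr5-high cells, Odc1, the first enzyme of polyamine synthesis, measured 31.5 ± 6.57 and 32.2 ± 6.22 CPM against 45.4 ± 12.4 and 56.1 ± 11.1 CPM (-0.67 ± 0.14, adjusted p = 0.0015). Aldh1l1, which oxidises formyl folate to carbon dioxide, had medians of 18.1 and 13.5 CPM against 32.6 and 29.0 CPM (-0.96 ± 0.22, adjusted p = 0.00380). Ahcyl2, a relative of Ahcy, was at -0.57 ± 0.13 (adjusted p = 0.00472) and Amn, a subunit of the intestinal cobalamin receptor, at -0.93 ± 0.28 (adjusted p = 0.0332). Without each library in turn, Ggh, Ahcyl2, Aldh1l1 and Odc1 passed in 28 of 28 fits, Phgdh in 27 (adjusted p = 0.0501 without Lgr5-high control replicate 2), Amn and Cd320 in 20 (up to 0.0697 without Lgr5-low cystine replicate 2, and 0.0685 without Lgr5-high cystine replicate 3) and Mat2b in 18 (up to 0.0829 without Lgr5-high cystine replicate 2). Of 11 other settings, Ggh passed in 11, Ahcyl2, Aldh1l1 and Odc1 in 10, Cd320, Mat2b and Phgdh in 9 and Amn in 7. The count over both diets fell to 5 without Lgr5-low cystine replicate 7. Within the male class alone, 1 of the 9 calls held, that of Ggh (adjusted p = 0.0465).

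By list, 2 of 9 tested genes of the methionine cycle and S-adenosylmethionine use passed over both diets (1 higher, 1 lower; median -0.42), 3 of 10 cytosolic folate genes (2 higher, 1 lower; median 0.07) and 1 of 3 serine synthesis genes (higher; median 0.45). In the transport and handling of folate and cobalamin 2 of 15 passed (1 higher, 1 lower; median -0.13), and in polyamine synthesis and methionine salvage 1 of 9 (lower; median 0.02). None of the 8 tested mitochondrial folate genes passed (median -0.22), the lowest p being that of Dld, a subunit of the glycine cleavage system (-0.26 ± 0.10, adjusted p = 0.109). On control diet alone 1 of the 54 passed, Phgdh, which was higher (1.63 ± 0.43, adjusted p = 0.0346), beside 0.784% of all genes that were higher. It lost the call in 6 of 12 other settings, and when 1 library was left out its adjusted p ran up to 0.0910 (without Lgr5-high control replicate 3). That count was 0 without any 1 of 9 libraries and 2 without Lgr5-low control replicate 3. On cystine diet alone 4 passed, beside 1.1% of all genes that were higher and 1.54% that were lower: Ggh (1.14, adjusted p = 0.0143) was higher, and Odc1 (-0.80, adjusted p = 0.0193), Amn (-1.62, adjusted p = 0.0224) and Ahcyl2 (-0.67, adjusted p = 0.0479) were lower. This count ran from 1 without Lgr5-high cystine replicate 2 to 6 without Lgr5-high cystine replicate 4, and was 2 without Lgr5-low cystine replicate 6 or 7 or Lgr5-high cystine replicate 7. With 1 library left out, adjusted p reached 0.0515 for Ggh (without Lgr5-high cystine replicate 2), 0.0501 for Odc1 (Lgr5-low cystine replicate 3), 0.0690 for Amn (Lgr5-low cystine replicate 2) and 0.148 for Ahcyl2 (Lgr5-low cystine replicate 7). In all, Ggh and Odc1 passed in 27 of these 28 fits, Amn in 23 and Ahcyl2 in 8, and of 12 other settings they passed in 11, 10, 8 and 5.

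**Figure D4:**
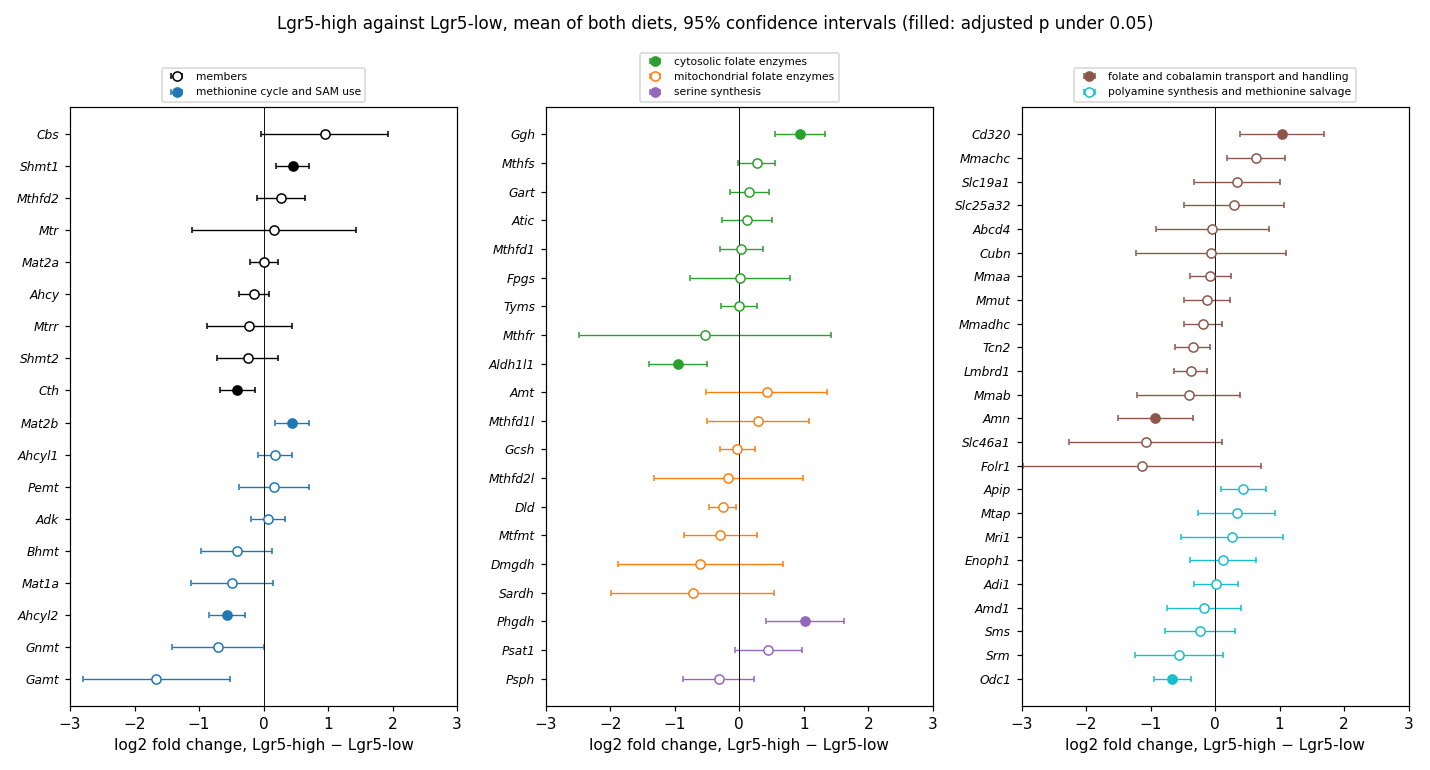
Log2 fold change of Lgr5-high against Lgr5-low cells, mean of both diets, with 95% confidence intervals, for the 9 genes (labelled members) and the tested genes of the 6 pathway lists, 1 of them not shown; filled points have an adjusted p under 0.05. Shmt1, Mat2b, Ggh, Phgdh and Cd320 pass on the right of 0, and Cth, Ahcyl2, Aldh1l1, Amn and Odc1 on the left.

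Between the diets, 0 of the 54 pathway genes passed in either population or in the difference of the diet effects. In Lgr5-high cells 5 had an unadjusted p under 0.05, in Lgr5-low cells 1 and for the difference 3. Apip, an enzyme of the methionine salvage route, had the lowest: it ran from 86.5 to 148 CPM (median 106) on control diet and from 96.4 to 251 CPM (median 190) on cystine diet (0.80 ± 0.24, adjusted p = 0.317). Its difference passed with a sex term (0.89, adjusted p = 0.00853), within the female class (0.82, adjusted p = 0.0438), when the fit held the Lgr5-high groups alone (0.81, adjusted p = 0.0365) and with a mean per group and sex class (0.85, adjusted p = 0.00873). Amn (-1.08 ± 0.41, adjusted p = 0.799) and Mmaa, a chaperone of cobalamin in mitochondria (0.55 ± 0.22, adjusted p = 0.926), did not pass in any of these fits. Across the 28 libraries Apip had r of 0.57 with macrophage, 0.52 with stem cell and 0.50 with hepatocyte sums (0.23, 0.40 and 0.64 with the group means removed). With goblet sums, enterocyte sums and Alb r was -0.41, -0.05 and 0.03 (-0.09, 0.12 and 0.50 with the group means removed). The part of these markers in the diet value of Apip was not tested.

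The remaining pair with an unadjusted p under 0.05 are enzymes best known from liver. Bhmt, which remethylates homocysteine with betaine, measured 7.80 to 24.9 CPM (median 14.9) on control diet and 3.83 to 14.7 CPM (median 6.98) on cystine diet in Lgr5-high cells (-1.01 ± 0.39, adjusted p = 0.835). Gnmt, which spends S-adenosylmethionine on glycine, measured 1.84 to 7.82 CPM (median 4.67) and 0.861 to 3.68 CPM (median 2.10; -1.18 ± 0.51, adjusted p = 0.994). In the same libraries the hepatocyte marker Alb measured 69.4 to 195 CPM (median 129) on control diet and 38.1 to 149 CPM (median 86.5) on cystine diet.

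Levels of Gnmt and Bhmt followed those of Alb across the 28 libraries, with Pearson's r of 0.87 and 0.80 and Spearman's rho of 0.81 and 0.76 on log2 values (two-sided permutation tests, adjusted over 14 genes, p = 0.00014 for both r, and 7e-05 and 9.33e-05 for rho). Mat1a, the liver form of the S-adenosylmethionine synthetase, gave 0.71 and 0.74 (adjusted permutation p = 0.00014 and 7e-05). All these permutations shuffled Alb over the 28 libraries regardless of group and sex class. The p-values therefore do not allow for what libraries of a group or class share. Without the 2 libraries farthest from the median of Alb, r was 0.82, 0.73 and 0.75 for Gnmt, Bhmt and Mat1a, and with the group means removed it was 0.84, 0.79 and 0.64. Among the 9 genes r with Alb lay between -0.51 for Mat2a (adjusted permutation p = 0.0203) and 0.46 for Cth (adjusted permutation p = 0.0423; rho 0.41, adjusted permutation p = 0.08). With the group means removed these were -0.60 and 0.22. Without the 2 farthest libraries they were -0.47 and 0.39. The values of Shmt1 and Cbs gave r of -0.17 and 0.09 (adjusted permutation p = 0.447 and 0.718), and 0.16 and 0.40 with the group means removed. With the sum of the 6 hepatocyte markers r was 0.52 for Shmt1 (0.56 with the group means removed) and 0.31 for Cbs, beside 0.51 for Gnmt, 0.60 for Bhmt and 0.53 for Mat1a. A large part of that sum is Cps1, which the small intestine also expresses. Its group means were 558 to 776 CPM, beside 1132 to 1390 CPM for the sum. The part of Cps1 in these values was not tested.

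The genes whose levels ran most alike to a member across the 28 libraries were taken from 7639 or 7640 tested genes with a mean of at least 5 CPM. Shmt1 had the closest partners: Kcne3, a potassium channel subunit of crypt cells (r = 0.91), Adh5 (0.87) and Stmn1 (0.87). With the group means removed, Kcne3 was again first at 0.88. Cbs ran most alike to Slc27a2, a fatty acid transporter (0.83, and 0.84 with the group means removed), Cth to the glycolytic enzyme gene Gpi1 (0.77; with the group means removed Dstn was first, 0.70) and Mat2a to Med19 (0.77, and 0.79). For Shmt2 the first was Gcdh (0.77), for Ahcy Pcbp1 (0.71), for Mthfd2 Srpk1 (0.70), for Mtr Vps13b (0.69) and for Mtrr Crcp (0.64). Between the 9 genes themselves r lay between -0.47 (Mat2a with Cbs) and 0.41 (Mat2a with Shmt2). These coefficients describe 28 libraries that share groups, sex classes and differences in depth, and each is the highest among all genes compared.

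Between the sex classes, 2 of the 9 genes differed over both populations (Mat2a and Mtr), beside 22.8% of all genes. This comparison was added after the data had been seen, in a fit with a mean per group and sex class. Control replicates 1 to 3 and cystine replicates 1 and 2 form the male class in both populations, so sex and anything else these replicates share cannot be told apart. In Lgr5-low cells Mat2a measured 49.97 to 73.6 CPM (median 59.4) in the 5 male-class libraries. It measured 74.2 to 88.0 CPM (median 81.2) in the 9 female-class libraries, with no overlap. The share of all genes without overlap was not computed. The log2 difference of Mat2a, male minus female, was -0.45 ± 0.14 (adjusted p = 0.0179), where 18.5% of all genes passed. In Lgr5-high cells it was -0.10 ± 0.14 (adjusted p = 0.785), where 3.11% of all genes passed. The difference between these values, 0.35 ± 0.19, did not pass (adjusted p = 0.439; 0.408% of all genes).

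Cbs in Lgr5-low cells measured 0.454 to 6.74 CPM (median 3.73) in the male class and 0.337 to 2.07 CPM (median 1.03) in the female class, a difference of 1.92 ± 0.65 (adjusted p = 0.0351) with overlapping ranges. In Lgr5-high cells the classes measured 0.506 to 6.64 CPM (median 2.43) and 1.11 to 13.1 CPM (median 3.18). The population effect on Cbs, male minus female, was -2.31 ± 0.96 and did not pass (adjusted p = 0.282). Mtr was at 0 in all 3 male-class libraries of Lgr5-low control and in 1 of 4 female-class libraries of that group, so no fold change is given for it. Its median in Lgr5-low cells was 0 CPM in the male class and 3.19 CPM in the female class.

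All 9 genes lie on the minus strand of GRCm38 in GENCODE M21. Chromosome 6 holds Mat2a (72432799 to 72439558) and Mthfd2 (83305691 to 83325908), and chromosome 13 holds Mtr (12182712 to 12258113) and Mtrr (68560780 to 68582149). Ahcy lies on chromosome 2 (155059310 to 155074497), Cth on chromosome 3 (157894248 to 157925077), Shmt2 on chromosome 10 (127517123 to 127522444), Shmt1 on chromosome 11 (60788104 to 60811718) and Cbs on chromosome 17 (31608894 to 31637238).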

How the data were processed

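RNA sequencing of 28 libraries was analysed from 1 deposited table of estimated counts per gene. Per the submitters' processing notes, the authors used Salmon 1.3.0 and the build mm10; for the annotation, the trimming and the strand setting the sources used here give nothing. Salmon shares reads between similar transcripts by a model, which can split the values of near-identical genes. The labels' protocols name a directional kit with poly(A) selection. The 1243 genes without a symbol took 0.00328% to 0.0111% of each library's counts.

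The deposited estimated counts, given as whole numbers, were tested with edgeR 4.0.16 (R 4.3.3; robust quasi-likelihood, TMM factors, filterByExpr, 1 mean per group over all 28 libraries, two-sided, Benjamini-Hochberg adjustment over 12495 genes, threshold 0.05). Every adjusted p comes from this fit unless another source is named. The mean of the population differences over both diets weights the diets equally. The common biological coefficient of variation was 0.629, and the counts of no pair of libraries within a group agreed within sampling noise (84 pairs, chi-square per gene 13.9 to 226). Limits for counts of 0 use 3 counts and, like intervals of single libraries, cover counting error only. The test was tested on simulated data, where it found most differences of 2 on the log2 scale but few or none of 0.5. A gene that did not pass may therefore still differ.

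Alternatives were RLE factors, DESeq2 1.42.0, limma-voom (limma 3.58.1), no filter, at least 1 CPM in 7 libraries, only the compared groups, a replicate block, a sex term, each sex class (female where Xist exceeded 50 CPM), no library under 5 M counts, and each library left out. A mean per group and sex class, and the correlations with Alb (100000 resamples) and with marker sums (a description with no test; pseudocount 0.5 CPM for both), were added after the data had been seen. Coordinates came from GENCODE M21 (51485 of 54354 identifiers matched, 94.7%) and copies from BLAST 2.17.0.

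The 9 genes, the pathway lists and the marker lists were chosen with earlier results of these data known. Named besides them were pathway genes past the threshold (the 8 of lowest p if more in 1 list), the 2 of lowest p of a list where described, and the 3 genes most correlated with each member (log2 CPM, prior count 2, predicted genes passed over), of which the first is given, and all 3 for Shmt1. The lists of tuft, Paneth, T and cell cycle genes held 2 of 4, 0 of 4, 0 of 3 and 0 of 11 tested genes past the threshold over both diets, those of enterocytes, epithelium and hepatocytes 1 of 7, 2 of 5 and 1 of 6. One pathway gene past the threshold is counted but not reported here.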

Additional observations from a re-analysis of the deposited data

Results flagged for a closer look

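In 3 of 40 groups of values examined (the 9 genes and the total counts in each of the 4 groups), 1 library stood apart from the other 6 of its group by more than Dixon's 95% critical value; chance alone gives about 1 in 20. Shmt1 measured 181 CPM in Lgr5-low control replicate 3, where the next library measured 117 CPM. Cth measured 78.3 CPM in Lgr5-high control replicate 2, where the next measured 46.5 CPM. Mtr measured 7.27 CPM in Lgr5-high control replicate 5, where the next measured 3.54 CPM. The population differences of Shmt1 and Cth without these libraries are given above, and the causes were not tested.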

How the results depend on the processing

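Over both diets 2 of the 9 genes passed in the fit as designed. The number was 1 with RLE factors, 1 without the filter on low counts, 1 without libraries under 5 M counts and 0 within the male class (10 libraries), 3 with limma-voom (Cbs besides Shmt1 and Cth), and 1 to 2 when each library was left out. On control diet, where 0 passed, limma-voom and the female class each called 1, Shmt1 (adjusted p = 0.0180 and 0.00994), and leaving out each library gave 0 to 1. On cystine diet, where 0 passed, limma-voom and the fit with a mean per group and sex class each called 1, Shmt1 (adjusted p = 0.0366 and 0.0364), and leaving out each library gave 0. For the diet contrasts and their difference every alternative and each library left out gave 0 of 9. Of the pathway genes, 9 passed over both diets, against 1 within the male class, 15 with a mean per group and sex class and 5 to 10 with each library left out. On control diet 1 passed, against 8 with limma-voom, 3 with a mean per group and sex class, 2 within the female class, 0 without the filter, with only the compared groups, within the male class or without libraries under 5 M counts, and 0 to 2 with each library left out. On cystine diet 4 passed, against 7 with limma-voom, 2 without libraries under 5 M counts, 1 within the male class and 1 to 6 with each library left out. The diet contrast in Lgr5-high cells, with 0, gave 1 (Apip) in the 4 fits named above, and 0 with each library left out. Only the compared groups cannot be fitted for the mean over both diets or for the difference of diet effects.

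Same-numbered libraries deviated from their group means with correlations of 0.07 to 0.24 between the populations on control diet (over 0.1 in 4 of 7), -0.08 to 0.17 on cystine diet and -0.09 to 0.12 between diets, so the numbers were not taken to pair libraries. With the replicate block the log2 fold change over both diets was 0.48 for Shmt1 (adjusted p = 0.00783) and -0.44 for Cth (adjusted p = 0.0345), and 0 pathway genes passed on control diet (Phgdh, adjusted p = 0.0510). Amn lost its call over both diets (0.0988) and on cystine diet (0.110), and Ahcyl2 on cystine diet (0.0516). Other pairs between the populations had a median correlation of -0.04 on control diet and -0.01 on cystine diet. Same-numbered libraries of the populations also had the same sex class on both diets. Whether the numbers mark shared animals is therefore not settled here, and the main fit treats the libraries as independent.

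Of 2142 log2 fold changes of the 9 genes under alternatives, 1901 kept their direction and side of the threshold, 27 lost the call, 7 gained one, 207 changed sign with no call in either fit, and 0 changed sign with a call. Over all genes the number called over both diets was 1100 and ran from 290 to 2337, on control diet 225 (31 to 781), on cystine diet 330 (108 to 1007), for diet in Lgr5-high cells 21 (0 to 123), in Lgr5-low cells 0 (0 to 10) and for the difference 0 (0 to 6). Depth limits Mtr and Cbs most, with 0 to 132 and 2 to 95 counts per library.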
